A study of Homo sapiens with 2 samples.

Results

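The genes described here are 39 genes of glucose metabolism, taken by name from the 58735 genes of the deposited count table: 3 glucose transporters, 7 enzymes that serve glycolysis only, 5 regulators of glycolysis, 9 enzymes shared by glycolysis and gluconeogenesis, 4 genes of lactate metabolism, 6 enzymes that serve gluconeogenesis only, 2 further genes of gluconeogenesis (a transporter and a coactivator) and 3 enzymes of the pentose phosphate pathway. Here the word only sorts enzymes between glycolysis and gluconeogenesis and does not exclude roles in other pathways. Of the 39 genes, 38 reached 10 counts in a library and entered the comparison, as did 17887 genes in all. The RNA came from PLC8024 (PLC/PRF/5, labelled Alexander cells), an established HCC cell line grown in high-glucose medium with serum. The first library was from MAEL WT cells (genotype wildtype, non-treated) and the other from MAEL KO cells, in which MAEL had been targeted with an sgRNA and Cas9. The MAEL KO cells were grown out from sorted single cells, so a difference that follows the loss of MAEL and a difference between a clone and the cells it came from cannot be told apart. Each condition had 1 library, so no difference below has a replicate check, no p-value is given, and intervals account for counting error alone. The reads carried no molecular identifiers and are not independent molecules, so the intervals can be too narrow even for that error.

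Glycolysis splits glucose into pyruvate, and gluconeogenesis, a task of the liver, makes glucose from lactate and amino acids. Most steps run both ways on the same enzymes, while a few irreversible steps at the top and bottom have separate enzymes for each direction, and these are the points of control. The pentose phosphate pathway branches off from phosphorylated glucose and yields NADPH and ribose. Many tumor cells take up much glucose and convert pyruvate to lactate even where oxygen is present.

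Counts summed to 19904136 (MAEL WT) and 20833332 (MAEL KO). Of the targeted transcript, MAEL, 1 count was found in MAEL WT and 0 in MAEL KO, so it was not detectable in either and gave no check of the labels. Markers of hepatocytes and HCC were present in both libraries, with 112070 summed counts in MAEL WT and 186101 in MAEL KO. Of these markers, 9 of 9 were higher in MAEL KO, against 48.0% of all genes tested. ALB, at 59 and 8550 counts, and AFP, at 26 and 1351, differed most, and AMBP, at 52191 and 52760, differed least. Summed fibroblast markers went from 280 to 177 counts, leukocyte markers from 1302 to 747 (of which LYZ took 1251 and 737), endothelial markers from 354 to 408 (of which PECAM1 took 348 and 392) and skeletal muscle markers from 149 to 67. PTPRC stood at 3 and 0 counts and CD3E at 0 in both. The part of the hepatocyte markers' difference in the results below was not tested.

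The genes of the glycolytic route were mostly higher in MAEL KO, and the 3 enzymes chosen from the pentose phosphate pathway stood near the level of MAEL WT. The largest differences were in G6PC, the phosphatase that releases free glucose, at 6.16 on the log2 scale, in PCK1 at 2.98, in LDHA, which converts pyruvate to lactate, at 2.90 and in the glucose transporter SLC2A2 at 2.26. These were the 4 genes higher by over 2 on the log2 scale, the fold threshold of the study, and LDHB at -2.05 was the 1 gene lower by over 2. All fold changes are of MAEL KO over MAEL WT, from counts scaled between the libraries (TMM) with 1 added.

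Over all genes tested, 2.16% were higher and 5.64% lower by over 2, against 10.5% and 2.63% of the 38 genes of glucose metabolism. At a log2 difference of over 1, 22 of the 38 were higher (57.9%) and 3 were lower (7.89%), against 10.2% and 16.5% of all genes tested. The 22 included PPARGC1A, at 6 and 12 counts, and HK2, which lay just past the threshold. Of the 38, 31 were above 0 (81.6%), against 48.0% of all genes, and the median was 1.08 beside -0.04 over all genes tested. Genes of glucose metabolism have many reads, and so the count was repeated among genes with at least 1000 counts in a library. There 17 of 28 were higher by over 1 and 1 was lower, against 10.5% and 5.08% of all such genes. The interval lay above 0 for 28 genes, below 0 for 7, and included 0 for HK1, G6PC3 and PPARGC1A. The same count was not made over all genes tested. Intervals are narrow for any gene with many reads, so these numbers describe the 38 genes and do not set them apart.

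**Figure D1:**
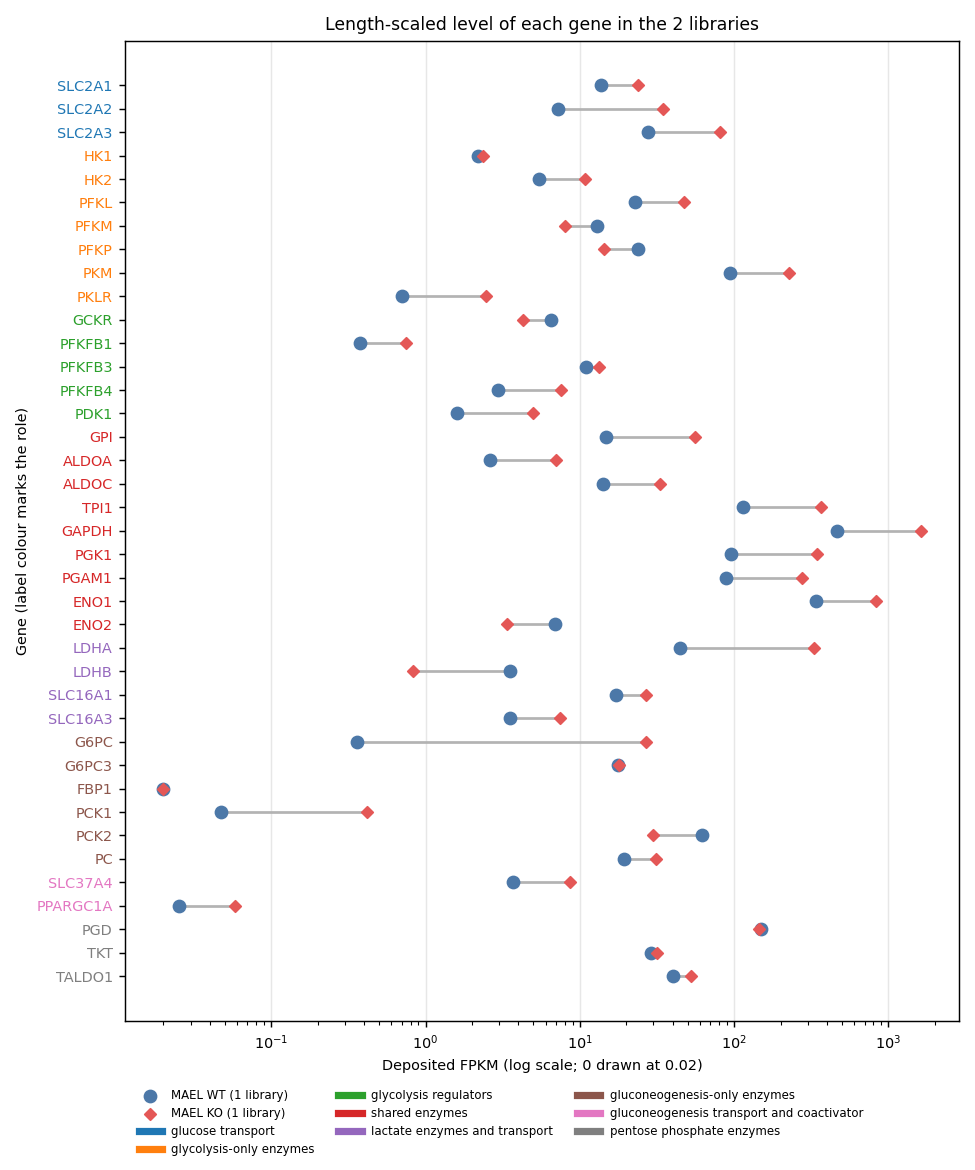
Deposited FPKM (log axis) of each of the 39 genes in the MAEL WT library (circles) and the MAEL KO library (diamonds), with 1 library per group and a grey line between the 2 values; label colours mark the roles, and a value of 0 is drawn at 0.02. GAPDH and ENO1 had the highest levels in both libraries, LDHA moved from 44.3 to 329, G6PC from 0.361 to 26.7, and FBP1 was at 0 in both.

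Promoter sequence is shown for G6PC, LDHA and SLC2A2, which were higher by over 2 and had a window, for PGK1 and GAPDH as abundant shared enzymes, and for LDHB, which was lower by over 2. The RefSeq table of promoters (GRCh38.p14) matched 36 of the 39 genes with 70 windows from 250 bases before to 50 after a transcription start, and had none for PCK1, SLC16A1 and SLC2A3. The 250 bases before the start are printed 5′ to 3′ on the gene's strand, with ACGTG, the core of the hypoxia response element and part of the E-box CACGTG, in capitals on either strand (CACGT being its reverse complement).
LDHA, chr11:18394313-18394562, plus strand: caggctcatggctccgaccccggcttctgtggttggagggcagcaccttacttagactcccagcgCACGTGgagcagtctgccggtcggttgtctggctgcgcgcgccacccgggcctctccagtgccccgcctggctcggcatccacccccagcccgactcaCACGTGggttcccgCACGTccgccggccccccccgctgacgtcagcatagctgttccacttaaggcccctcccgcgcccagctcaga
PGK1, chrX:78103998-78104247, plus strand: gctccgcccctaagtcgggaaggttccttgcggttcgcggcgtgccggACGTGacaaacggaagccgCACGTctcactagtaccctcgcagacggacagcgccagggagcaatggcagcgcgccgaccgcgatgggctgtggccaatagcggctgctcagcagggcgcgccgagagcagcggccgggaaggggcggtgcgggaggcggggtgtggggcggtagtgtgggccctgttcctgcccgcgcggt
GAPDH, chr12:6535014-6535263, plus strand: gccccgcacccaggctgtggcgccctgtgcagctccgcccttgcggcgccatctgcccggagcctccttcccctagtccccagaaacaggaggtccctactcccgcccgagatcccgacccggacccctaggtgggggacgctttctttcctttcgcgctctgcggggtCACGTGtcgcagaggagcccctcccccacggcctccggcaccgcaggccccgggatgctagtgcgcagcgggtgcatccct
G6PC, chr17:42900549-42900798, plus strand: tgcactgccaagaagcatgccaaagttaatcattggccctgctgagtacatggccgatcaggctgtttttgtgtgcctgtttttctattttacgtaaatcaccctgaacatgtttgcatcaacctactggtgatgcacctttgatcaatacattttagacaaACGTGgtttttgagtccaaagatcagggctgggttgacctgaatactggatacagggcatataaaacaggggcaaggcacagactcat
SLC2A2, chr3:171026721-171026970, minus strand: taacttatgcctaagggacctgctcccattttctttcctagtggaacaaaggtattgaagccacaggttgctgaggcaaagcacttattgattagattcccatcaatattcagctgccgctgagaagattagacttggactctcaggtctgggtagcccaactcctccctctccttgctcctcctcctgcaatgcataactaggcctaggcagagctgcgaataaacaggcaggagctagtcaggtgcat
LDHB, chr12:21657843-21658092, minus strand: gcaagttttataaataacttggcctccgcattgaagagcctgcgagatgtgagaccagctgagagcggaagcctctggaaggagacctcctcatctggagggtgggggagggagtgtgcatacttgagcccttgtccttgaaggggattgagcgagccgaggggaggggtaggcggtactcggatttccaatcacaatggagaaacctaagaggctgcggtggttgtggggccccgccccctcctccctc
LDHA had 5 matches to ACGTG over both strands, PGK1 and GAPDH 2 each, G6PC 1 and SLC2A2 and LDHB 0 in these 250 bases, a CACGTG counting on both strands. LDHA had another window, at chr11:18396101-18396350, with 0 matches. The windows of GAPDH, PGK1 and LDHB lie inside the deposited gene spans (chr12:6533927-6538374, chrX:77910739-78129296 and chr12:21635342-21757857). The sequence before the outermost annotated start of these genes is thus not shown.

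Over the 250 bases before each start, ACGTG on either strand was present in 25 of 70 windows of these genes (35.7%), against 18.5% of all 35116 windows in the table. The E-box CACGTG, which always contains ACGTG, was in 11 of the 70 (15.7%) against 6.34% of all windows, at ALDOA, ALDOC, G6PC3, GAPDH, HK2, LDHA, PFKFB3, PKLR and PPARGC1A. By gene, 20 of 36 had ACGTG in some window (55.6%), against 21.7% of all 27305 genes in the table, but the 36 had more windows to search, 1.94 a gene against 1.29. These were 13 of the 20 genes higher by over 1, 6 of the 12 tested genes between the thresholds and 1 of the 3 lower by over 1 (ENO2). The cAMP response element TGACGTCA was found at LDHA alone among these genes and in 1.65% of all windows. TATAAA was in 8.57% of the windows of these genes, G6PC and LDHB among them, against 10.7% of all. CCAAT was in 32.9% against 32.0%, and GGGCGG in 55.7% against 42.6%. Windows of the same gene overlap, so these shares are a description, and a match is not a binding site.

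Glucose enters the cell through the transporters of the SLC2A family, and all 3 of those chosen were higher in MAEL KO. SLC2A2, the GLUT transporter of the hepatocyte, had 536 counts in MAEL WT and 2225 in MAEL KO, a log2 fold change of 2.26 (95% counting interval 2.13 to 2.40). SLC2A3, a high-affinity transporter known from neurons and from many tumors, had 3721 and 9511 counts, a log2 fold change of 1.56 (1.51 to 1.62). SLC2A1, the widespread basal transporter, had 1425 and 2139 counts, a log2 fold change of 0.80 (0.70 to 0.89). Per length, SLC2A3 was the most abundant of the 3 in both libraries, with FPKM of 27.6 and 81.5, and its share of the 3 stood at 56.9% and 58.3%. The order of the other two was exchanged: SLC2A1 took 28.4% in MAEL WT and 17.1% in MAEL KO, and SLC2A2 14.8% and 24.6%.

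Of the 7 enzymes that serve glycolysis only, 5 were above 0 and 4 were higher by over 1, with a median of 1.00. Without PKLR, which shares over 10% of its exonic bases with another gene, the median was 0.56. The members of each family moved unequally. Hexokinase traps glucose in the cell by phosphorylating it, and its HK2 form, abundant in tumors, had 721 and 1248 counts, a log2 fold change of 1.00 (0.87 to 1.14). It lay just past the threshold and under it with DESeq2 size factors, upper quartile factors, total counts, the FPKM ratio or 5 added to the counts. HK1, the widespread form, had 300 and 281 counts with 0.12 (-0.12 to 0.36), an interval that includes 0. The most abundant hexokinase on the lists was HKDC1, which is not among the 39 genes, with FPKM of 26.8 in MAEL WT and 12.2 in MAEL KO beside 5.44 and 10.9 for HK2. The summed FPKM of HK1, HK2, HK3 and HKDC1 was 34.4 in MAEL WT and 25.4 in MAEL KO.

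Phosphofructokinase, the committed step of glycolysis, is built from liver, muscle and platelet subunits. The liver subunit PFKL had 4472 counts in MAEL WT and 7973 in MAEL KO, a log2 fold change of 1.04 (0.99 to 1.10). The muscle subunit PFKM had 2060 and 1115 counts, with -0.67 (-0.78 to -0.57), and the platelet subunit PFKP 2514 and 1312, with -0.73 (-0.83 to -0.63). The liver subunit was thus higher and the other two lower, and PFKL went from 38.5% to 67.8% of the family per length while PFKP went from 39.9% to 20.6% and PFKM from 21.6% to 11.6%. The 3 subunits together had 9046 and 10400 counts, a log2 fold change of 0.41 in plain counts, in which the long gene PFKL weighs most. Per length the difference was smaller, with summed FPKM of 59.5 in MAEL WT and 69.5 in MAEL KO.

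Pyruvate kinase forms pyruvate in the last step. PKM, the form of most tissues and tumors, had 17506 and 36837 counts, a log2 fold change of 1.28 (1.26 to 1.31). PKLR, the form of liver and red cells, had 49 and 148 counts, with 1.78 (1.33 to 2.30). PKLR remained a minor form in both libraries, at 0.752% and 1.08% of the family per length. Its share of the plain counts was 0.279% (0.207% to 0.369%) in MAEL WT and 0.400% (0.338% to 0.470%) in MAEL KO. These intervals overlap, which does not show that the shares are equal.

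The 5 regulators differed in direction. PDK1, a kinase that keeps pyruvate out of the mitochondrial oxidation route, had 520 and 1398 counts, a log2 fold change of 1.64 (1.49 to 1.79). The PFKFB enzymes set the level of the strongest activator of phosphofructokinase, and PFKFB4 had 396 and 878 counts, with 1.36 (1.19 to 1.53). PFKFB3, the most abundant of them, had 1457 and 1537 counts, with 0.29 (0.18 to 0.39). With PFKFB2 (1432 and 757 counts), a family member outside the 39 genes that was named after its values were seen, PFKFB3 held 52.7% of the 4 genes per length in MAEL WT and 52.0% in MAEL KO, and PFKFB4 14.4% and 29.7%. PFKFB1, the liver form, was scarce at 17 and 29 counts, with a wide interval of 0.07 to 1.94 around 0.94. GCKR, an inhibitor protein of a hepatocyte hexokinase, was the 1 regulator below 0, with 449 and 255 counts and -0.60 (-0.83 to -0.38).

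Of the 9 enzymes shared by both directions, 8 were higher by over 1, in a band from 1.23 to 1.93, and ENO2 was lower. None passed a difference of 2, and the median was 1.65. GPI, which turns glucose phosphate into fructose phosphate, had 3459 and 11362 counts, a log2 fold change of 1.93 (1.87 to 1.98). PGK1, a kinase that yields ATP, had 11511 and 35891 counts, with 1.85 (1.82 to 1.88). GAPDH, the dehydrogenase often used as a reference gene, had 30302 and 92598 counts, with 1.82 (1.80 to 1.84), and its level went from FPKM of 465 to 1638. A value set relative to GAPDH would therefore shift by this amount between these libraries.

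The triosephosphate isomerase TPI1 had 6730 and 18720 counts, a log2 fold change of 1.69 (1.65 to 1.73), and the mutase PGAM1 had 4943 and 13451, with 1.65 (1.61 to 1.70). ENO1, the widespread enolase, had 39041 and 82504 counts, with 1.29 (1.27 to 1.31). ENO2, the enolase of neurons, had 642 and 272 counts, with -1.03 (-1.24 to -0.82). Per length, ENO2 was at 1.99% of the sum of ENO1 and ENO2 in MAEL WT and at 0.405% in MAEL KO. ENO3, another enolase outside the 39 genes and named after its values were seen, had FPKM of 7.26 and 8.15, above those of ENO2 (6.86 and 3.35). Both aldolases were higher, ALDOC from 908 to 1838 counts with 1.23 (1.11 to 1.34) and ALDOA from 223 to 519 with 1.42 (1.20 to 1.66). ALDOC held 84.5% and 82.6% of this pair per length.

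The level of ALDOA is uncertain. In the GENCODE 29 annotation, whose exonic bases equal the deposited gene lengths of 39 of 39 genes, 93.8% of its 1350 coding bases also belong to the same-strand gene AC093512.2, which had 20 and 39 counts. The same holds for LDHB, with 93.5% of 1002 coding bases shared with AC010197.2, at 0 and 1 counts. How reads over shared bases were assigned is not given in the sources used here, and its part in these levels was not tested. In all, 7 of the 39 genes had at least 10% of their exonic bases shared with another gene on either strand (ALDOA, LDHB, PKLR, FBP1, GAPDH, PC and ALDOC). Of the 32 tested genes under that limit, 18 were higher by over 1 and 2 lower by over 1, against 10.2% and 16.5% of all genes.

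Pseudogenes named after 13 of the genes, 106 rows in all, had 314 counts in MAEL WT and 686 in MAEL KO. Relative to its gene, the largest set was that of TPI1, with 144 and 373 counts, which are 2.14% and 1.99% of those of TPI1. The 62 pseudogenes of GAPDH had 121 and 268 counts, or 0.399% and 0.289% of those of GAPDH. These are counts of reads assigned to the pseudogenes alone. How far reads were exchanged between a gene and its copies was not tested.

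The lactate genes contained the lowest value of the 38 and the third highest. LDHA, the dehydrogenase subunit that favours lactate formation, is the plus-strand gene at chr11:18394388-18408425 (GRCh38). It had 6021 counts in MAEL WT and 38749 in MAEL KO, 7.45-fold higher, a log2 fold change of 2.90 (2.86 to 2.94). Its FPKM rank among the genes tested went from 860 to 99. LDHB, the heart-type subunit, the minus-strand gene annotated at chr12:21635342-21757857, had 229 and 47 counts, 4.21-fold lower, with -2.05 (-2.56 to -1.62). By the deposited counts, LDHA was already the main subunit in MAEL WT, at 92.7% of the pair per length, and reached 99.7% in MAEL KO. The level of LDHB is uncertain, since 93.5% of its coding bases also belong to AC010197.2. This limit on the shares is not part of the counting intervals. The share of LDHB in the plain counts of the pair was 3.66% (3.21% to 4.16%) in MAEL WT and 0.121% (0.0890% to 0.161%) in MAEL KO, and these intervals do not overlap. SLC16A3, which exports lactate from glycolytic cells, had 694 and 1271 counts, with 1.08 (0.95 to 1.22), and SLC16A1, which carries lactate and pyruvate both ways, had 1993 and 2708, with 0.65 (0.57 to 0.74). SLC16A1 held 82.9% and 78.3% of these transporters per length.

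**Figure D2:**
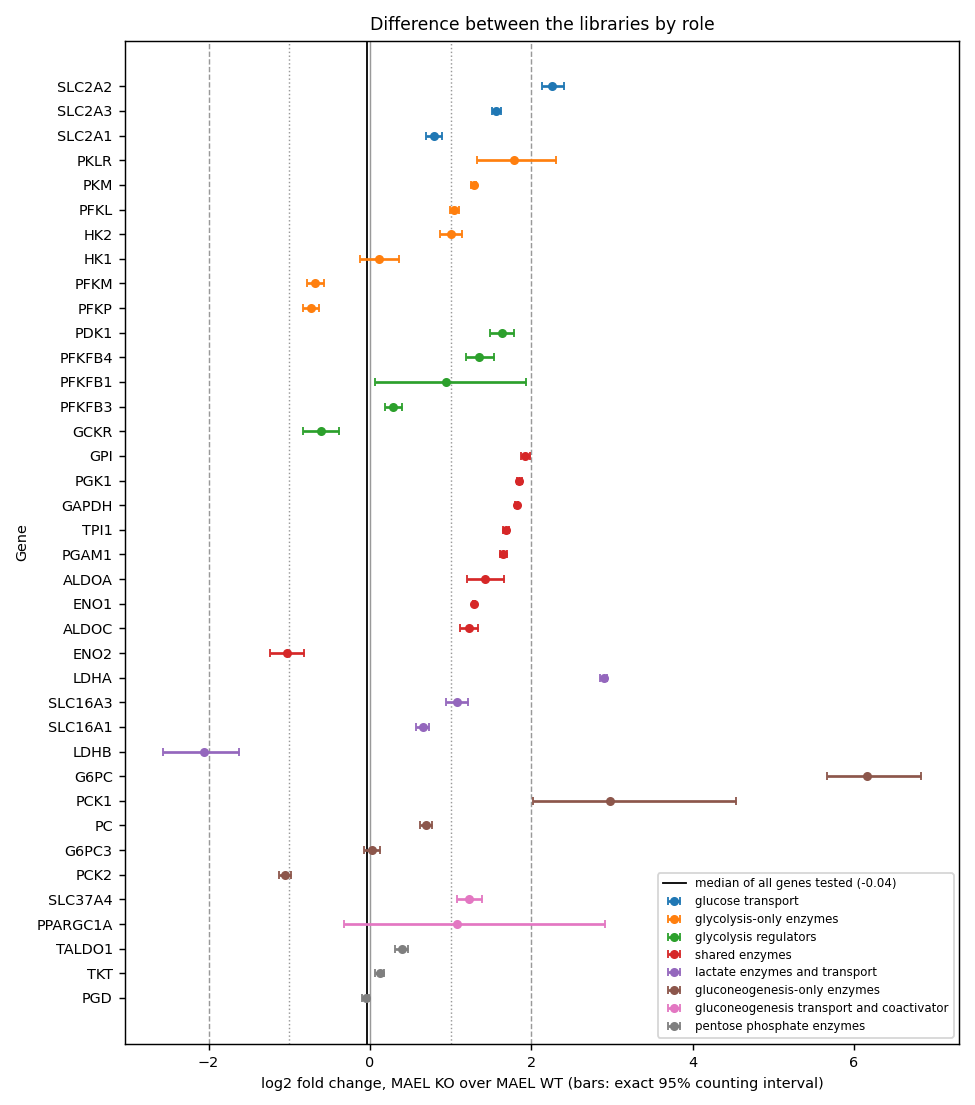
The log2 fold change of MAEL KO over MAEL WT (1 library each) for the 38 tested genes, coloured by role, with bars for the exact 95% counting interval, dotted and dashed lines at 1 and 2 in each direction and a black line at the median of all genes tested, -0.04. The shared enzymes form a band between 1.23 and 1.93 apart from ENO2, and G6PC at 6.16 and LDHB at -2.05 are the ends of the range.

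The enzymes that serve gluconeogenesis only did not move as a group, and their median was 0.70, or 1.499 without PC, which shares over 10% of its exonic bases with another gene. G6PC, the catalytic subunit of liver glucose phosphatase, the plus-strand gene at chr17:42900797-42913369, had 26 counts in MAEL WT and 1671 in MAEL KO, 74.4-fold higher, with a log2 fold change of 6.16 (5.66 to 6.84). Its FPKM went from 0.361 to 26.7. G6PC3, the form found in most tissues, had 1765 and 1548 counts, with 0.02 (-0.08 to 0.12), an interval that includes 0, and its sign changes with the scaling. In MAEL WT, G6PC took 1.45% (0.950% to 2.12%) of the counts of the pair, and in MAEL KO 51.9% (50.2% to 53.6%). Per length these shares were 1.99% and 59.8%.

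Phosphoenolpyruvate carboxykinase, the enzyme that commits carbon to gluconeogenesis, has a cytosolic form, PCK1, and a mitochondrial form, PCK2, and they moved in opposite directions. PCK1 had 7 and 54 counts, 8.93-fold higher, with a log2 fold change of 2.98 (2.02 to 4.54). At FPKM of 0.0469 and 0.418 it was among the 3 lowest of the tested genes of glucose metabolism in both libraries. PCK2 had 5639 and 2351 counts, with -1.05 (-1.12 to -0.98), and FPKM of 61.5 and 29.6. Since PCK2 held 99.9% and 98.6% of the pair per length, the pair together had 5646 and 2405 counts, a log2 fold change of -1.02. Pyruvate carboxylase, PC, had 2512 and 3518 counts, with 0.70 (0.62 to 0.77). FBP1, the bisphosphatase opposite to phosphofructokinase, had 0 counts in both libraries, which allows up to 3 counts in each, so no fold change was taken.

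Of the further genes of gluconeogenesis, the transporter SLC37A4, which brings phosphorylated glucose to the G6PC enzyme in the endoplasmic reticulum, had 501 and 1017 counts, with a log2 fold change of 1.23 (1.08 to 1.39). PPARGC1A, a coactivator of G6PC and PCK1 in the fasted liver, had 6 and 12 counts, and its interval of -0.32 to 2.91 around 1.08 includes 0. With counts this low a difference was not detectable.

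The 3 enzymes of the pentose phosphate pathway lay between -0.05 and 0.39, with a median of 0.12. Scaled by total counts, which moves the median of all genes from -0.04 to -0.31, this median is -0.16 and TKT lies below 0. PGD, an oxidative enzyme that yields NADPH, had 9740 and 8131 counts, with a log2 fold change of -0.05 (-0.09 to -0.01). TKT, the transketolase of the non-oxidative branch, had 6056 and 5688 counts, with 0.12 (0.07 to 0.17). TALDO1, the transaldolase of the same branch, had 2625 and 2978, with 0.39 (0.32 to 0.47). Among the levels of the 39 genes, PGD went from rank 3 in MAEL WT, at FPKM of 150.1, to rank 8 in MAEL KO at 144.6.

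**Figure D3:**
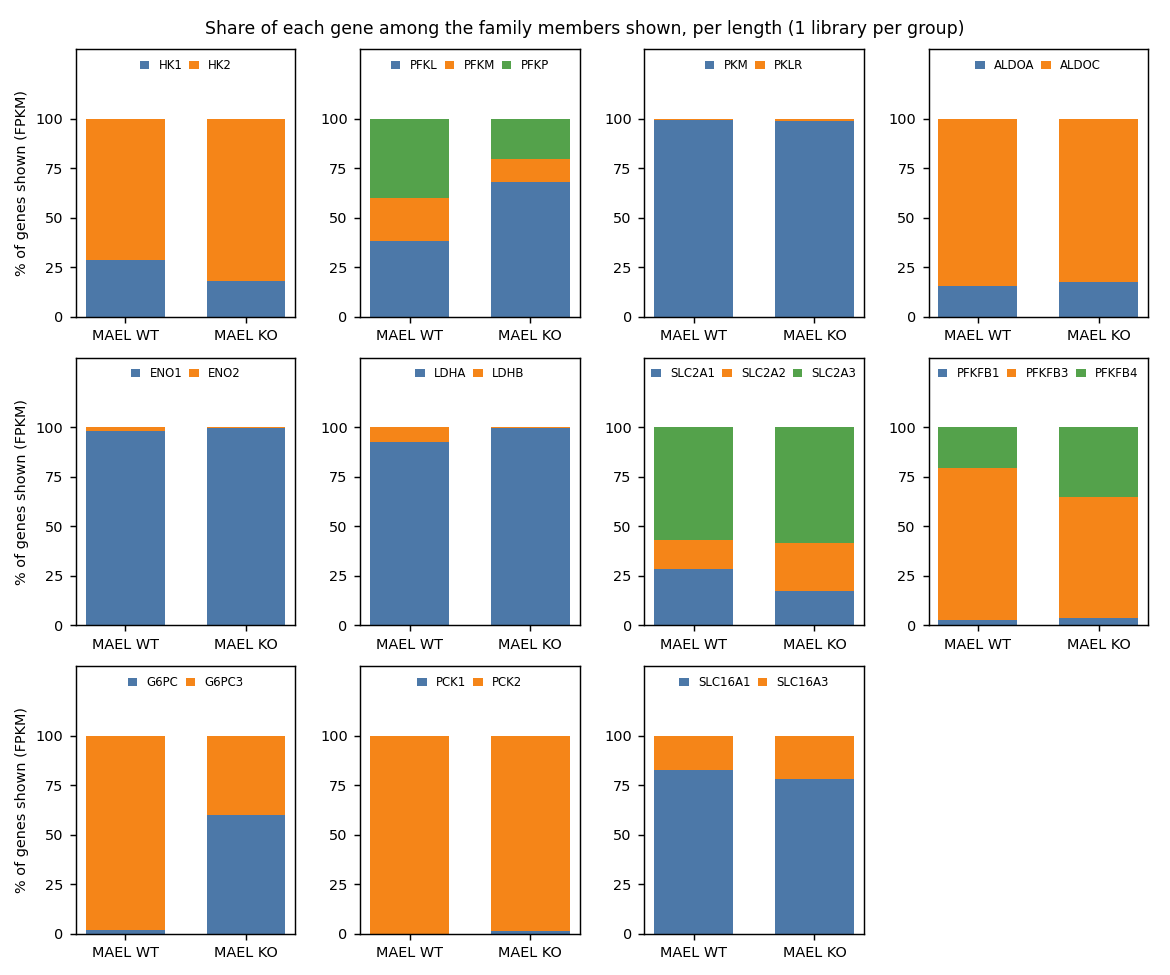
Share of each gene in the summed FPKM of its family members among the 39 genes (percent, stacked bars from 0, over the members shown), in the MAEL WT and MAEL KO libraries, 1 library each. G6PC goes from 1.99% to 59.8% of its pair and PFKL from 38.5% to 67.8% of the phosphofructokinase subunits, while PKM, ENO1 and LDHA hold at least 92.7% of their pairs in both libraries. The levels of ALDOA and LDHB are uncertain, as most of their coding bases also belong to another gene.

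The share of all reads that fell on the 39 genes was 0.863% (0.859% to 0.867%) in MAEL WT and 1.89% (1.88% to 1.90%) in MAEL KO, from 171716 and 393784 counts. Most of this came from the shared enzymes, with 97759 and 257155 counts. Ratios of groups within a library do not depend on the scaling between libraries. The counts of the shared enzymes were 5.31 times those of the pentose phosphate enzymes in MAEL WT and 15.3 times in MAEL KO. This is a difference of 2.88-fold. Against the same pentose phosphate counts, the glycolysis-only enzymes were 1.94-fold higher and the lactate genes 5.25-fold higher in MAEL KO. Each of these sums was taken up largely by 1 gene. LDHA gave 6021 of 8937 lactate counts in MAEL WT and 38749 of 42775 in MAEL KO. PKM gave 17506 of 27622 and 36837 of 48914 glycolysis-only counts. The glycolysis-only enzymes had 2.78 times the counts of the gluconeogenesis-only enzymes in MAEL WT and 5.35 times in MAEL KO. Of the gluconeogenesis-only counts, PCK2 gave 5639 in MAEL WT and 2351 in MAEL KO, while G6PC gave 26 and 1671. The gluconeogenesis-only enzymes together had 9949 and 9142 counts as deposited, while after TMM scaling their sum was 1.06-fold higher in MAEL KO, so the direction of this sum depends on the scaling. In bulk RNA a change in the number of cells that express a gene and a change in its RNA per cell cannot be told apart.

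Other genes of glucose metabolism, 109 in 9 lists, differed less on the median than the 39. Of the 100 tested, 16 were higher and 9 lower by over 1, against 10.2% and 16.5% of all genes tested. None was higher by over 2, and SLC2A10, CEBPB and TXNIP were lower by over 2, against 2.16% and 5.64% of all genes tested. The median was 0.18. The glycogen genes had the highest median, 0.76, with 14 of 16 above 0 and 7 higher by over 1. Among them PYGM, the muscle glycogen phosphorylase, had 3 and 12 counts, at 1.88 with a wide counting interval (0.32 to 4.68) that reaches past 2, and PYGB, the brain form, was lowest with 3957 and 1388 counts, at -1.30 (-1.39 to -1.21).

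The genes of pyruvate entry to mitochondria had a median of 0.54, from PDK4, a kinase of fasting tissues, at -0.78 (300 and 151 counts) to its relative PDK3 at 1.31 (344 and 741). Other pentose phosphate and sugar-phosphate genes had a median of 0.51, from the lactonase PGLS at -0.26 (1072 and 773 counts) to SHPK at 1.12 (44 and 84). The malate and aspartate shuttle had a median of 0.48, from SLC25A12 at -0.41 (404 and 262 counts) to the dicarboxylate carrier SLC25A10 at 1.81 (192 and 583). For fructose, galactose and glycerol entry the median was 0.21, with GPD1L at -1.98 (1379 and 301 counts) and glycerol kinase, GK, at 1.09 (1396 and 2570).

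The remaining lists had medians near or below 0. Other monocarboxylate transporters and their partners were at -0.19, with EMB at -1.11 (149 and 59 counts) and BSG, the chaperone of lactate transporters, at 0.18 (15332 and 15024). Other hexose transporters were at -0.29, with SLC2A8 highest at 0.64 (474 and 638 counts), while SLC2A10 had 31 counts in MAEL WT and 3 in MAEL KO, at -2.82 (-5.51 to -1.48). Other glycolysis and gluconeogenesis genes were at -0.41, from the hexokinase HKDC1 at -1.13 (2493 and 985 counts) to ADPGK at 0.30 (1361 and 1445). 

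The 23 transcription factors and sensors had a median of 0.01. HNF4A, a regulator of hepatocyte genes, was highest at 1.15, with 2816 and 5391 counts. CEBPB, a factor of the liver and the acute phase, was lowest at -2.23 (-2.31 to -2.16), with 9375 and 1723 counts. TXNIP, a glucose-induced inhibitor of glucose uptake, was at -2.20 (-2.50 to -1.92), with 636 and 119 counts. Of the factors chosen here, only CEBPB and TXNIP differed by over 2.

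**Figure D4:**
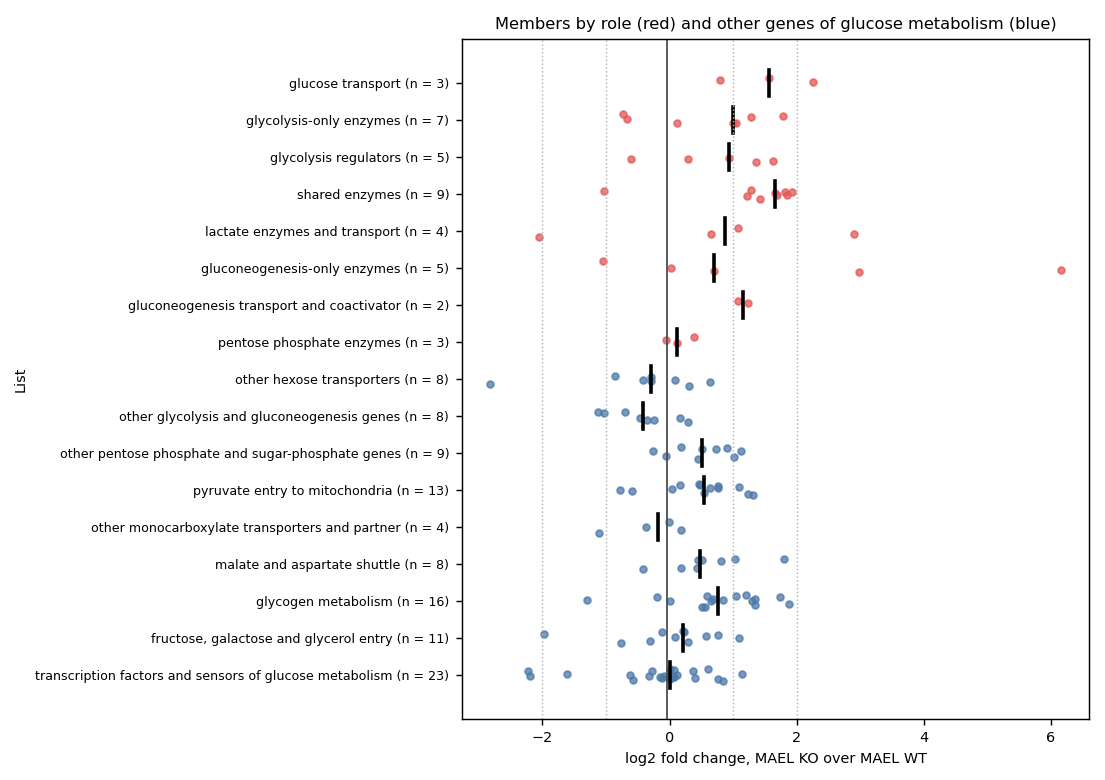
The log2 fold change of MAEL KO over MAEL WT (1 library each) for the genes of each role (red points) and for the 9 lists of other genes of glucose metabolism (blue points), with a black bar at the median of each list, a grey line at the median of all genes tested and dotted lines at 1 and 2 in each direction. The shared enzymes have the highest median, 1.65, and the pentose phosphate enzymes the lowest of the roles, 0.12.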

How the data were processed

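The libraries, 1 of MAEL WT and 1 of MAEL KO cells, were read on a HiSeq instrument. The authors deposited read counts per gene, without normalization, and FPKM values. The deposited FPKM equal the counts divided by gene length and by library sizes of 21872531 and 18958459, which are 1.10 and 0.910 times the count totals of 19904136 and 20833332. The submitters' processing notes name HISAT2 2.0.5, featureCounts 1.5.0-p3 and hg19, while the tables carry GRCh38 coordinates, and the strand setting and the handling of overlapping genes are not given in the sources used here.

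The 39 genes and all lists were chosen with earlier results of these data known. Counts were scaled by TMM factors (1.10 and 0.909) in edgeR 4.0.16, and the log2 ratio was taken after adding 1, for genes that reached 10 counts in a library. Exact Clopper-Pearson 95% intervals treat the count of a gene in MAEL KO as a share of both libraries. No test was run, since neither condition had a second library. Differences over 2, the fold threshold of the study, and over 1 were counted beside the same over all genes. All 39 genes are named, and of the other lists the genes with the largest and smallest log2 fold change and those past 2, among them genes at low counts. Some genes of these pathways are not reported here. Alternatives were DESeq2 1.42.0 size factors, total counts, upper quartile factors, the FPKM ratio with 0.01 added, prior counts of 0.1 and 5, filters at 1, 100 and 1000 counts, protein-coding genes alone, plain-count shares, and, added later, leaving out genes with overlapping exons and shares with other family members. The steps were tested on simulated data. R 4.3.3, Python 3.11.15, NumPy 2.4.6, pandas 2.3.3, SciPy 1.17.1 and matplotlib 3.10.9 were used.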

Additional observations from a re-analysis of the deposited data

How the results depend on the processing

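With 1 library per condition no replicate could be left out, and depth limits FBP1, PPARGC1A, PFKFB1 and PCK1 most. No paired analysis was possible because each condition has 1 library and no test was run. With DESeq2 size factors, 21 genes were higher by over 1 in place of 22. With upper quartile factors, the FPKM ratio or 5 added to the counts, 20 were higher by over 1. Over all genes tested, the share higher by over 1 was 9.06% to 10.3% under these settings. With total counts, 16 genes were higher by over 1, 4 lower by over 1 in place of 3, and 3 higher by over 2 in place of 4, SLC2A2 being lost. Over all genes tested, 6.56% were then higher and 22.5% lower by over 1, and 1.5% higher by over 2. The pentose phosphate median was then -0.16 and that of the transporter and coactivator of gluconeogenesis 0.89, which was 0.99 with 5 added to the counts. Under the other scalings, units, prior counts and filters, there were 301 values of single genes. Of these, 38 at the filter of 1 count and 35 at 100 counts could not move, as a filter leaves each value unchanged. In all, 39 moved beyond their counting interval, 32 with total counts and 7 with upper quartile factors. The sign changed in 4 (HK1, G6PC3 and TKT with total counts and G6PC3 with upper quartile factors). With 5 added, 0 genes were lower by over 2, against 2.87% of all genes tested. Among genes with at least 1000 counts 0 were lower by over 2 and 1 by over 1, against 1.05% and 5.08% of all such genes. Among genes with under 10% of exonic bases shared with another gene, 0 were lower by over 2, against 5.63% of all genes. Both alternatives were chosen after seeing the data. Leaving out the genes that share exons, the median of the glycolysis-only enzymes was 0.56 in place of 1.00 and that of the gluconeogenesis-only enzymes 1.499 in place of 0.70. By plain counts in place of counts per length, PFKL was already the largest subunit in MAEL WT, at 49.4% of its family.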
